A study of Homo sapiens with 6 samples.

Results

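Lysozyme and other proteins that myeloid cells pack into granules or secrete were followed through 10 genes of the 56638 in the count table: LYZ, MPO, ELANE, PRTN3, AZU1, CTSG, S100A8, S100A9, SRGN and CST3. They were picked by symbol for that function, with earlier results of these libraries known, the rise of LYZ among them, so the treatment values of LYZ describe the samples it was picked from and add no separate support. Transcripts were counted in MOLM-13, an established line from an acute monocytic leukaemia with a fusion of KMT2A and MLLT3, so all values describe a single line in culture. The UC-764864 group holds 3 libraries of cells kept for 24 h in 2 µM UC-764864, which the series title calls an inhibitor of the ubiquitin-conjugating enzyme UBE2N and the design text spells UC-744864. The DMSO group holds 3 libraries of cells given the solvent alone, and both groups grew in RPMI medium with serum and antibiotics. Whether the 3 libraries of a treatment stem from separate cultures is not stated in the labels, and p-values thus refer to the spread among these samples, part of which may be technical.

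Granule proteins of the neutrophil and monocyte lineage are stored and released onto microbes, and those of azurophil granules are made mostly at the promyelocyte stage. Azurophil granules hold myeloperoxidase and the serine proteases, which a proteoglycan, serglycin, helps to pack. Transcripts of these proteins are therefore used as signs of how far a myeloid cell has matured, and leukaemic blasts often carry them in large amounts.

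Of the 10 members, 1 rose after UC-764864 and 0 fell. The riser was LYZ, whose transcript was 1.84-fold higher after UC-764864, while serglycin, myeloperoxidase, the 4 members of the serine protease family, calprotectin and cystatin C did not pass the test in either direction. Passing means an adjusted p under 0.05 in edgeR's quasi-likelihood test with Benjamini-Hochberg adjustment over the 13490 genes tested, and all 10 members were among those tested. In that test 5.11% of all genes passed as higher and 8.13% as lower. At an unadjusted p under 0.05 the members counted 1 higher and 1 lower, against 14.9% and 16.6% of all genes, and DESeq2 also called 1 higher and 1 lower, against 6.35% and 10.2%, with ELANE the lower one both times. With each library's trend of counts on GC content removed, edgeR called 2 members higher (LYZ and SRGN) and 2 lower (ELANE and AZU1), against 16.4% and 15.7% of the 11647 genes with a GC value. The median log2 fold change of the 10 members was −0.07, against 0.01 for all genes tested. Too few reads were counted for S100A8 and S100A9, 35 to 72 in each library, to judge anything but a large change. Because RNA was taken in bulk, fewer cells with a transcript and less of it per cell cannot be told apart.

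The libraries held 17073654 to 25014437 counts in the UC-764864 group and 16136156 to 24511499 in the DMSO group. The tests used the 52839 rows that every library holds, since DMSO library UDI0055 stands at 0 in 3799 rows, none of which is a member. UC-764864 library UDI0052 and DMSO library UDI0056 had the fewest counts from GC-rich transcripts (over 0.6 GC), 9.43% and 9.65% of counts, against 12.1% and 12.3% in the other UC-764864 libraries and 11.5% and 13.2% in the other DMSO libraries. MOLM-13's labelled lineage was visible in CD33 (134 ± 4.77 CPM under UC-764864 and 107 ± 3.04 CPM under DMSO) and FLT3 (468 ± 47.8 CPM under UC-764864 and 504 ± 35.4 CPM under DMSO), while CD14 and CD68 averaged under 0.6 CPM in each group. CPM is the count scaled by the TMM-adjusted library size to a common total, and values with ± are mean and SD of 3 libraries. Summed over 14 erythroid and megakaryocyte markers, the level was 0.259 to 0.631 CPM under UC-764864 and 0.659 to 1.06 CPM under DMSO, with HBA1, HBA2 and PF4 at 0 in every library. Over 11 lymphoid markers it was 32.8 to 45.4 CPM under UC-764864 and 49.3 to 56.9 CPM under DMSO, most of it NKG7, with CD3G, CD2 and MS4A1 at 0. Of 12 stromal, epithelial and endothelial markers, PECAM1 lay in the rows at 0 in UDI0055 and was left out. Over the rest the level was 18.4 to 20.1 CPM under UC-764864 and 19.2 to 21.8 CPM under DMSO. Most of it was KRT18, and COL3A1, DCN, KRT5 and KRT19 were at 0.

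LYZ encodes lysozyme, the enzyme that cuts the peptidoglycan of bacterial walls, and monocytes and their leukaemic counterparts secrete it. It was counted at 5885, 6331 and 5326 CPM in the UC-764864 libraries, against 3055, 3161 and 3295 CPM in the DMSO libraries. Every UC-764864 library lay above every DMSO library, and the gap between the groups was far wider than either group's own range. The means were 5848 ± 503 CPM under UC-764864 and 3170 ± 120 CPM under DMSO, a log2 fold change of 0.88 ± 0.10 (SE, edgeR adjusted p = 0.00141, 3 libraries a group). The 95% interval of the fold ran over 1.58 to 2.15. By p, LYZ stood 16th of the genes tested. LYZ was the only member whose groups did not overlap, whereas 19.0% of all tested genes had every UC-764864 library above every DMSO library and 17.0% had every one below.

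As a share of all counts in the rows used, LYZ took 0.575%, 0.631% and 0.520% in the UC-764864 libraries and 0.314%, 0.315% and 0.337% in the DMSO libraries. By number of counts, which also depends on transcript length, it was the 4th, 3rd and 8th gene after UC-764864, against the 24th, 20th and 15th after DMSO. All 10 members together took 1.91%, 1.87% and 1.95% of counts after UC-764864 and 1.69%, 1.93% and 1.85% after DMSO, which overlap. LYZ passed in all 14 alternative analyses, among them each omission of 1 library, at log2 fold changes of 0.80 to 0.98 and adjusted p of 5.01e-11 to 0.0479. The highest of these p-values came with the rows that stand at 0 in UDI0055 kept as counts.

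**Figure D1:**
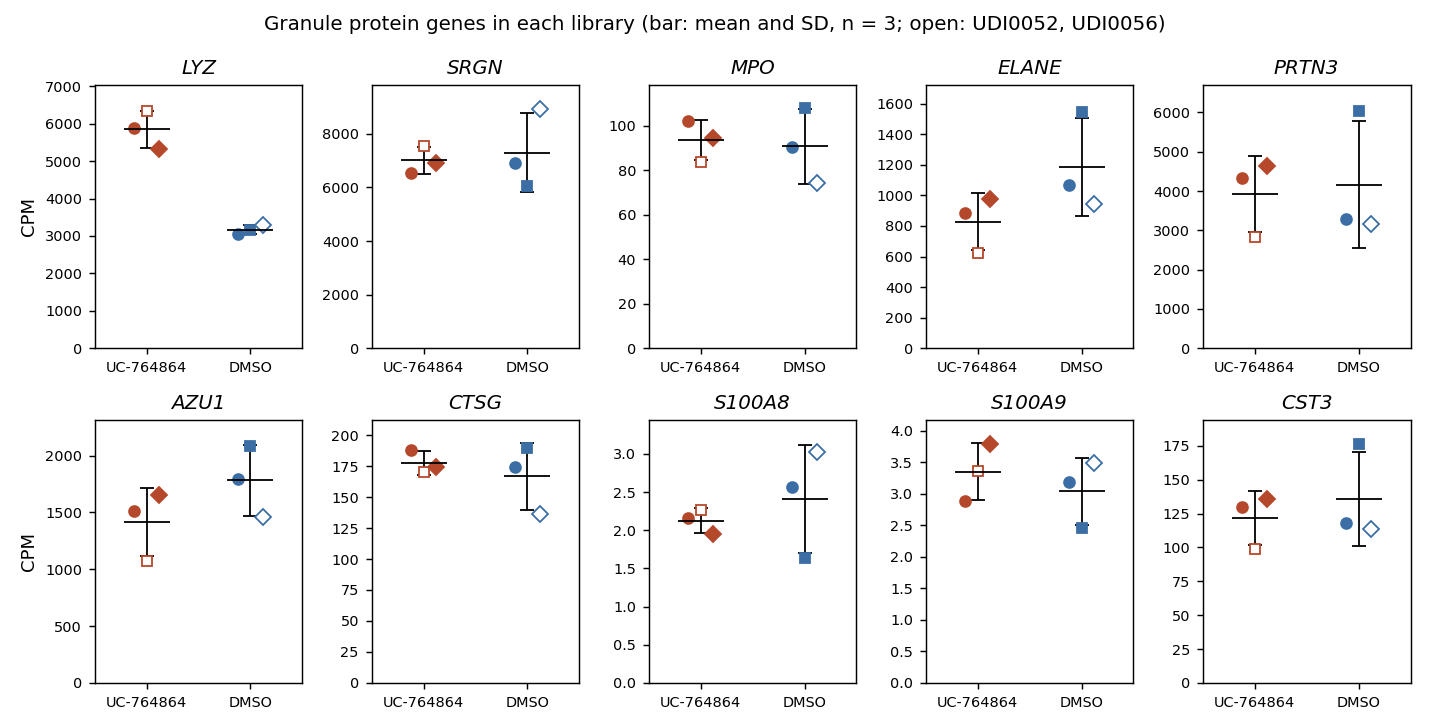
CPM of each member in each library (y axes linear from 0, 1 panel a gene), UC-764864 libraries to the left and DMSO libraries to the right, with bars for the mean and SD of 3 libraries and open markers for UDI0052 and UDI0056. LYZ is the gene whose UC-764864 libraries all lie above its DMSO libraries, at 5326 to 6331 CPM against 3055 to 3295 CPM.

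Among genes averaging 5 CPM or more, those whose log2 CPM ran closest to that of LYZ over the 6 libraries were SERBP1P5, CLSPN and LEO1. Likeness was the Euclidean distance between centred log2 CPM values over 9878 genes compared, and it was 0.224, 0.235 and 0.243. CLSPN, which encodes the replication checkpoint adaptor claspin, stood at 83.8 ± 10.6 CPM under UC-764864 and 46.8 ± 3.85 CPM under DMSO. LEO1, a subunit of the PAF1 elongation complex, stood at 97.1 ± 12.8 CPM under UC-764864 and 59.2 ± 1.66 CPM under DMSO. SERBP1P5 is a pseudogene whose reads may belong to its parent gene, so its 27.4 ± 3.38 CPM under UC-764864 and 16.2 ± 0.402 CPM under DMSO are uncertain. These 3 genes were selected for following LYZ, and their difference between the groups follows from that choice.

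SRGN encodes serglycin, the core protein whose chondroitin sulfate chains bind basic granule proteins. It had 6559, 7553 and 6916 CPM in the UC-764864 libraries, against 6904, 6063 and 8946 CPM in the DMSO libraries. The groups overlapped, with the lowest and the highest of all values both in the DMSO group. Its log2 fold change was −0.06 ± 0.13 (SE, edgeR adjusted p = 0.794), with a 95% interval of −0.35 to 0.23. Its sign was the same in 11 of 14 alternatives. It turned to a rise that passed with the GC trend removed (0.27, adjusted p = 0.0160), and to values above 0 that did not pass without UDI0056 (0.11) and without both UDI0052 and UDI0056 (0.03), so no direction can be given. In counts, the ratio of LYZ over SRGN was 0.897, 0.838 and 0.770 after UC-764864 and 0.442, 0.521 and 0.368 after DMSO. These ratios do not overlap, and like the ratios given further on they were chosen after the values had been seen and carry no test.

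MPO encodes myeloperoxidase, the heme enzyme that makes hypochlorous acid in the phagosome. It had 102, 83.8 and 94.7 CPM in the UC-764864 libraries, against 90.3, 108 and 74.0 CPM in the DMSO libraries. The groups overlapped over most of their range. The means were 93.5 ± 9.16 CPM under UC-764864 and 90.7 ± 16.9 CPM under DMSO, with a log2 fold change of 0.04 ± 0.15 (SE, edgeR adjusted p = 0.864) and a 95% interval of −0.28 to 0.36.

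AZU1, PRTN3 and ELANE lie side by side on the short arm of chromosome 19 and encode azurocidin, a protease homologue without proteolytic activity, proteinase 3 and neutrophil elastase. CTSG, on chromosome 14, encodes the related protease cathepsin G. The RefSeq sequences around the starts of AZU1, PRTN3 and CTSG are printed to show the region where transcription of these proteases begins. They run 5′ to 3′ over 300 bases on GRCh38.p14, at chr19:827587-827886 on the plus strand for AZU1, chr19:840749-841048 on the plus strand for PRTN3 and chr14:24576201-24576500 on the minus strand for CTSG. Capitals mark TATAA on the printed strand and the ETS core GGAA on either strand, and so also TTCC. The table of promoters held 6 of the 10 members, and LYZ, MPO, ELANE and SRGN have no sequence here.
AZU1: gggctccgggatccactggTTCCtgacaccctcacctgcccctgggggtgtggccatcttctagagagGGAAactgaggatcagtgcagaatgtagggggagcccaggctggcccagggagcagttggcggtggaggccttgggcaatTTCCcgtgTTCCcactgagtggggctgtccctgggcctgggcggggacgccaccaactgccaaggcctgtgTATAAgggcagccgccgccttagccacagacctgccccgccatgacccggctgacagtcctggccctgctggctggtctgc
PRTN3: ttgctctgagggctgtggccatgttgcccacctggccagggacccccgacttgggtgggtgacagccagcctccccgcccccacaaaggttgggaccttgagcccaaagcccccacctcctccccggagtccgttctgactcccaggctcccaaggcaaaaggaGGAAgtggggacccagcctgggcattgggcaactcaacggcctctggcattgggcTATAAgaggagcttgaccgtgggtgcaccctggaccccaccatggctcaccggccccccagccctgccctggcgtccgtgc
CTSG: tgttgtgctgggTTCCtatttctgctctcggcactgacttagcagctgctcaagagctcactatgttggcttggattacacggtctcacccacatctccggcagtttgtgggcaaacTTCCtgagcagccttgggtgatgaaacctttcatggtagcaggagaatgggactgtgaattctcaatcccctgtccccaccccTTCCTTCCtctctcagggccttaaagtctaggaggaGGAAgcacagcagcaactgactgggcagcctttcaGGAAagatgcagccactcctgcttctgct
AZU1 and PRTN3 each hold 1 match to TATAA, a word found on either strand in 20.4% of the 35116 promoters of the same length, and CTSG holds 0. GGAA occurs 4 times in AZU1, 1 time in PRTN3 and 6 times in CTSG, and in 95.5% of all promoters. The C/EBP word GCAAT occurs 1 time in AZU1 and not in the other two, against 24.5% of promoters. The MYB word AACNG occurs 3, 2 and 2 times, against 77.2% of promoters, and the RUNX word TGTGGT occurs in none of these 3 windows, against 13.1%. The 5 words were searched on both strands, and a match is a description of letters only. Among these words, 1 AACNG of AZU1 overlaps a GGAA, and no other pair overlaps in the 3 windows. GC content was 66.0% in the AZU1 window, 66.7% in that of PRTN3 and 53.0% in that of CTSG.

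ELANE, the elastase gene that is mutated in inherited neutropenias, had the lowest log2 fold change among the members. It had 887, 620 and 977 CPM in the UC-764864 libraries, against 1068, 1550 and 943 CPM in the DMSO libraries. The groups overlapped because UC-764864 library UDI0053 lay above DMSO library UDI0056. The means were 828 ± 186 CPM under UC-764864 and 1187 ± 320 CPM under DMSO, a log2 fold change of −0.52 ± 0.20 (SE) with an unadjusted p of 0.0215 that missed the threshold (edgeR adjusted p = 0.0959). ELANE was lower after UC-764864 in all 14 alternatives and passed in 5 of them: with DESeq2 (adjusted p = 0.0434), without a filter on low counts (0.000685), without UDI0056 (0.0153), without both UDI0052 and UDI0056 (0.0418) and with the GC trend removed (0.00273). Over all 14 its log2 fold change ran over −0.66 to −0.28 and its adjusted p reached 0.232. The value of −0.28 and the adjusted p of 0.232 both came without UDI0055, the DMSO library with the highest ELANE level.

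PRTN3, the autoantigen of granulomatosis with polyangiitis, had 4329, 2829 and 4643 CPM in the UC-764864 libraries, against 3282, 6031 and 3167 CPM in the DMSO libraries. The spread within each group was the largest among the abundant members, and the highest and lowest of the 6 values stood in different groups. Its log2 fold change was −0.08 ± 0.24 (SE, edgeR adjusted p = 0.842), and it ran over −0.24 to 0.29 in the alternatives, so no direction can be given. Its 95% interval, −0.60 to 0.44, leaves room for changes in either direction of about the size seen in ELANE.

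AZU1 had 1510, 1076 and 1654 CPM in the UC-764864 libraries, against 1796, 2086 and 1463 CPM in the DMSO libraries. All but UDI0056 of the DMSO libraries lay above the UC-764864 libraries. The log2 fold change was −0.33 ± 0.17 (SE, edgeR adjusted p = 0.192). It was below 0 in all 14 alternatives and passed in 2, without a filter on low counts (adjusted p = 0.0484) and after removal of the GC trend (−0.22, adjusted p = 0.0243).

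CTSG had 188, 170 and 174 CPM in the UC-764864 libraries, against 174, 189 and 137 CPM in the DMSO libraries. The UC-764864 libraries lay inside the range of the DMSO libraries. Its log2 fold change was 0.09 ± 0.13 (SE, edgeR adjusted p = 0.678), with a 95% interval of −0.20 to 0.38.

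The ratios of PRTN3 and AZU1 to ELANE varied less within a group than the levels of these genes did. PRTN3 over ELANE was 4.88, 4.56 and 4.75 in the UC-764864 libraries and 3.07, 3.89 and 3.36 in the DMSO libraries. AZU1 over ELANE was 1.70, 1.73 and 1.69 in the UC-764864 libraries and 1.68, 1.35 and 1.55 in the DMSO libraries. Neither ratio overlapped between the groups, though for AZU1 over ELANE the nearest libraries, UDI0053 and UDI0054, were 1.69 and 1.68. CTSG over ELANE was 0.212, 0.274 and 0.178 after UC-764864 and 0.163, 0.122 and 0.145 after DMSO, and MPO over ELANE was 0.115, 0.135 and 0.0969 after UC-764864 and 0.0846, 0.0696 and 0.0784 after DMSO. All 4 ratios over ELANE were thus higher in each UC-764864 library than in any DMSO library. They share ELANE, the member with the lowest log2 fold change, as denominator, and so are not 4 separate results. Among single genes tested, 19.0% had every UC-764864 library above every DMSO library and 17.0% had every one below. How often ratios of gene pairs taken from all genes separate was not counted. PRTN3 over AZU1, at 2.87, 2.63 and 2.81 after UC-764864 and 1.83, 2.89 and 2.16 after DMSO, overlapped.

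**Figure D2:**
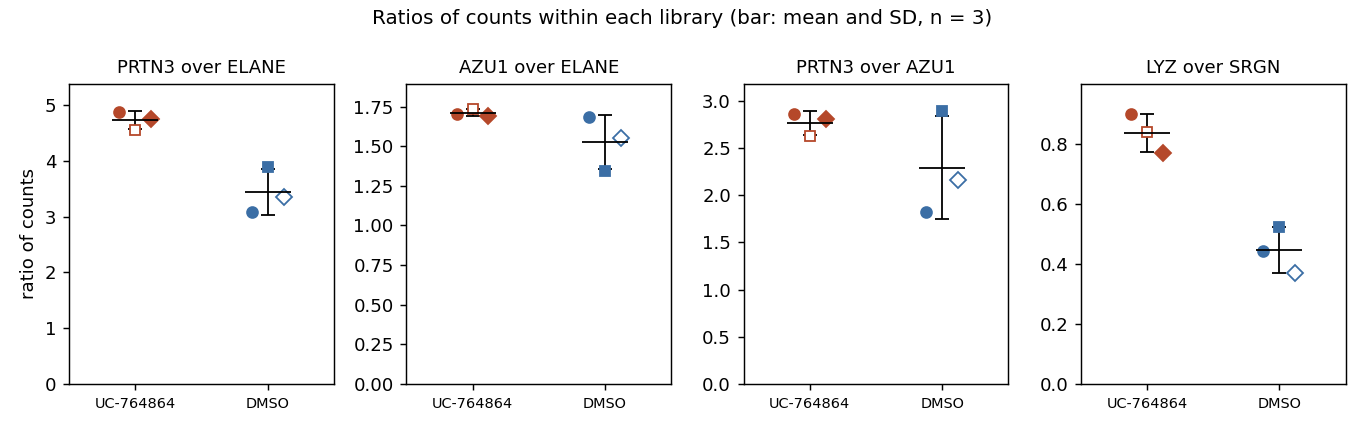
Ratio of counts between pairs of members within each library (y axes linear from 0), UC-764864 libraries to the left and DMSO libraries to the right, with bars for the mean and SD of 3 libraries and open markers for UDI0052 and UDI0056. PRTN3 over ELANE lies at 4.56 to 4.88 after UC-764864 and at 3.07 to 3.89 after DMSO, while PRTN3 over AZU1 overlaps between the groups.

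Along chromosome 19, the genes next to the AZU1, PRTN3 and ELANE cluster were read from the RefSeq order, 4 on each side, and 5 of these 8 were tested. CFD, which encodes complement factor D, a secreted serine protease, is the next gene after ELANE. It stood at 212 ± 74.6 CPM under UC-764864 and 424 ± 77.6 CPM under DMSO, with a log2 fold change of −1.0 ± 0.23 (SE, edgeR adjusted p = 0.0179). It passed without each library in turn (adjusted p of 0.00223 to 0.0441) and with the GC trend removed, but not with the rows at 0 kept as counts (0.0817). PALM, the farthest gene tested on the other side, fell from a low level, with 0.828 ± 0.181 CPM under UC-764864 and 1.91 ± 0.182 CPM under DMSO (log2 fold change −1.18, edgeR adjusted p = 0.0165). Its call was lost without UDI0053 (0.0662) and with the rows at 0 kept (0.0545). PTBP1, MED16 and R3HDM4 had log2 fold changes of 0.23, −0.05 and −0.05 and did not pass, although PTBP1 did without UDI0055 (adjusted p = 0.0263).

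S100A8 and S100A9 encode the subunits of calprotectin, which binds calcium, zinc and manganese and is abundant in mature neutrophils and monocytes. S100A8 was counted 48, 35 and 37 times in the UC-764864 libraries, against 58, 40 and 46 times in the DMSO libraries. S100A9 was counted 64, 52 and 72 times in the UC-764864 libraries, against 72, 60 and 53 times in the DMSO libraries. Scaled for library size, S100A8 averaged 2.13 ± 0.162 CPM under UC-764864 and 2.41 ± 0.710 CPM under DMSO, and S100A9 3.35 ± 0.453 CPM under UC-764864 and 3.04 ± 0.533 CPM under DMSO. These levels were above the floor of 3 counts, 0.123 to 0.198 CPM, but far below those of PRTN3. The 95% intervals of the log2 fold changes, −0.70 to 0.39 for S100A8 and −0.30 to 0.59 for S100A9 (edgeR adjusted p = 0.701 and 0.657), show how large a change could have gone unseen.

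CST3 encodes cystatin C, a secreted inhibitor of cysteine proteases made by most cells and strongly by monocytes and dendritic cells. It had 130, 98.8 and 136 CPM in the UC-764864 libraries, against 118, 176 and 114 CPM in the DMSO libraries. The groups overlapped, and the highest value, in UDI0055, set the DMSO mean above that of UC-764864. The log2 fold change was −0.16 ± 0.18 (SE, edgeR adjusted p = 0.568), with a 95% interval of −0.55 to 0.23.

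**Figure D3:**
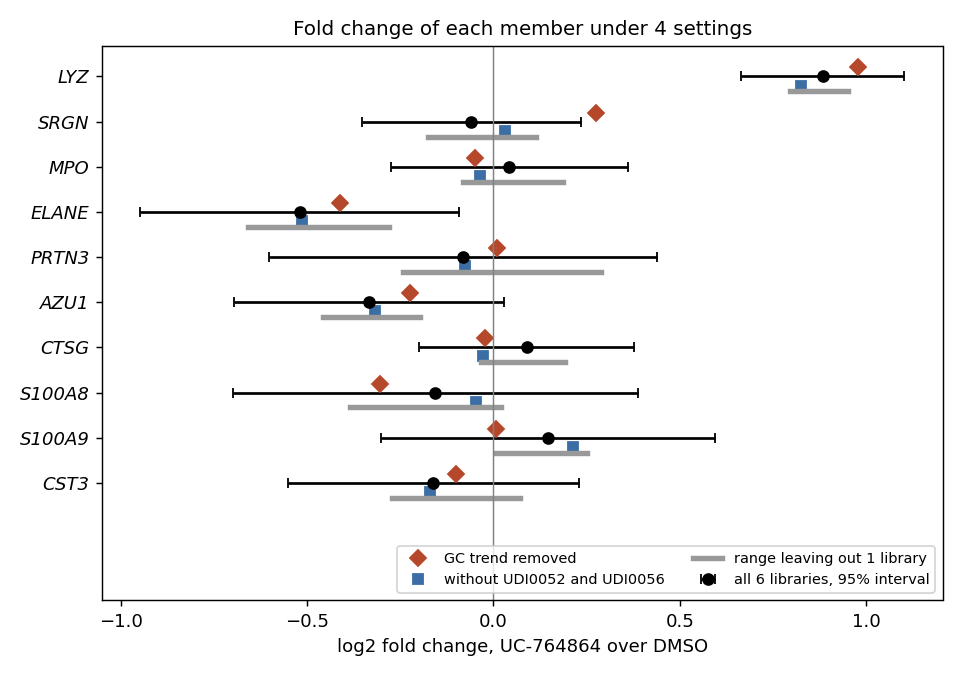
Log2 fold change of each member, UC-764864 over DMSO, with its 95% interval from all 6 libraries (black), the range when 1 library is left out (grey), the value without UDI0052 and UDI0056 (blue) and with the GC trend removed (red). LYZ lies at 0.88 with all of its values above 0, ELANE at −0.52 with all of its values below 0, and SRGN turns to 0.27 with the GC trend removed.

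Levels can be set against each other only per length, as CPM per kilobase of the principal GENCODE transcript. SRGN led with 5802 ± 417 CPM per kilobase after UC-764864 and 6046 ± 1227 after DMSO, where its lowest library lay below the highest of PRTN3. PRTN3 and LYZ followed after UC-764864, at 3834 ± 945 and 3822 ± 329 CPM per kilobase, and could not be ordered. After DMSO, PRTN3 stood at 4055 ± 1580, and LYZ, at 2072 ± 78.8, overlapped AZU1, at 1962 ± 343 CPM per kilobase. AZU1 was at 1557 ± 331 CPM per kilobase after UC-764864, and ELANE at 900 ± 202 after UC-764864 and 1290 ± 348 after DMSO, where its highest library reached the lowest of AZU1. CTSG and CST3 came next with overlapping DMSO values, CTSG at 200.3 ± 10.7 after UC-764864 and 188 ± 30.7 after DMSO, and CST3 at 139 ± 22.8 after UC-764864 and 156 ± 40.0 CPM per kilobase after DMSO. MPO lay lower, at 29.1 ± 2.85 CPM per kilobase after UC-764864 and 28.2 ± 5.26 after DMSO. S100A9 and S100A8 were last, at 5.80 ± 0.785 and 4.06 ± 0.311 after UC-764864 and at 5.27 ± 0.923 and 4.61 ± 1.36 after DMSO, with overlapping DMSO values.

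Within each group, the members split by the GC content of their transcripts. In UDI0052, against the mean of the other 2 UC-764864 libraries, LYZ and SRGN, with 41.5% and 38.1% GC, were higher by 0.18 and 0.16 on the log2 scale. PRTN3, ELANE and AZU1, with 66.1% to 67.5% GC, were lower there, with log2 values of −0.67, −0.59 and −0.56, and CST3, with 65.1%, had −0.43. UDI0056, against the other 2 DMSO libraries, showed the same sides, with 0.08 for LYZ, 0.46 for SRGN, and −0.56, −0.47, −0.41 and −0.37 for PRTN3, ELANE, AZU1 and CST3. These 4 genes, MPO and CTSG were lowest in their group in exactly those libraries, which are also the ones lowest in GC-rich counts. Each group holds 1 such library. DMSO library UDI0055, with the highest share of GC-rich counts (13.2%), had the highest value among all libraries for PRTN3, ELANE, AZU1, CST3, MPO and CTSG. Without it, PRTN3 had a log2 fold change of 0.29 and did not pass (edgeR adjusted p = 0.238). The protease values within a group thus vary with the share of GC-rich counts. The part of that share in the protease comparisons was tested only through the alternatives given for each gene.

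**Figure D4:**
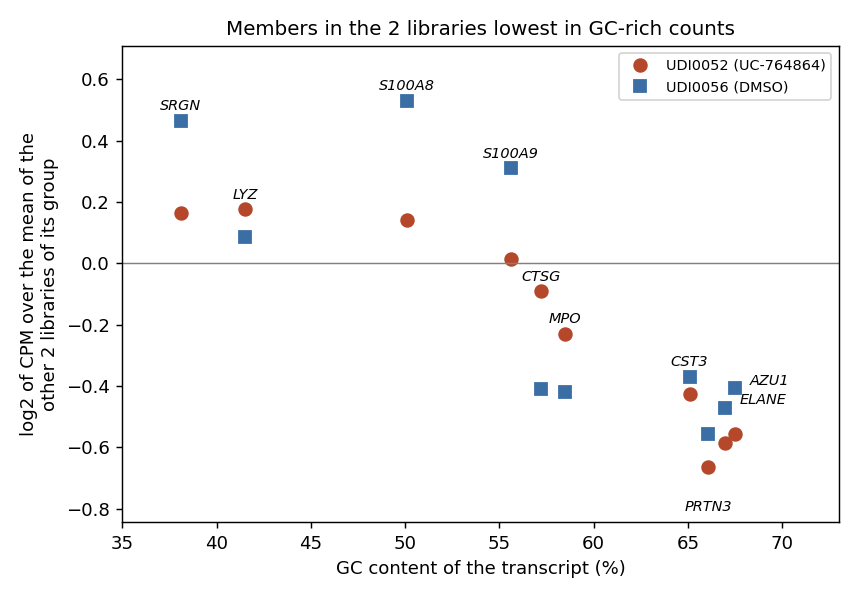
Log2 of the CPM in UDI0052 (UC-764864, circles) and UDI0056 (DMSO, squares) over the mean of the other 2 libraries of the same group (y axis), against GC content of the transcript in percent (x axis), for the 10 members. The 4 members with over 65% GC lie at −0.67 to −0.37, and LYZ and SRGN, with under 42%, lie at 0.08 to 0.46.

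The wider granule programme was followed in 8 lists of genes without the members themselves, which were also drawn up with earlier results of these libraries known and so give counts and medians only, read against the 5.11% and 8.13% of all genes that passed as higher and lower. Counts with the GC trend removed are given beside them and read against the 16.4% and 15.7% of genes called that way, since more genes passed in every list but not always with the same balance. Counts at an unadjusted p under 0.05 are read against 14.9% and 16.6% of all genes, and those by DESeq2 against 6.35% and 10.2%. Of the 23 list genes that passed, 4 still did without each library in turn (BPI, A2M, HMOX1 and CALR), and 5 did with the rows at 0 kept as counts (BPI, A2M, ANXA2, HMOX1 and ALAS1).

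Of 21 tested genes for other azurophil granule proteins, granulocyte ribonucleases and lysosomal hydrolases, 3 rose and 2 fell, with a median log2 fold change of −0.01. With the GC trend removed the same list gave 4 rises and 9 falls. BPI, which encodes the bactericidal protein that binds lipopolysaccharide, fell to 37.9 ± 1.85 CPM under UC-764864, against 68.0 ± 3.25 CPM under DMSO (log2 fold change −0.84, edgeR adjusted p = 0.00299). PRSS57, the gene of neutrophil serine protease 4 and the most counted of the list, fell to 586 ± 147 CPM under UC-764864, against 968 ± 165 CPM under DMSO (−0.72, adjusted p = 0.0256), a call lost without UDI0051 (0.0566) or UDI0054 (0.0732). The risers ARSB, FUCA1 and LAMP1, genes of lysosomal enzymes and of a lysosomal membrane protein, changed by 0.58, 0.56 and 0.51 on the log2 scale (adjusted p = 0.0174, 0.0134 and 0.0270). Each lost its call without UDI0051, UDI0053 or UDI0054, and LAMP1 also without UDI0052, at adjusted p of 0.0516 to 0.135. RNASE2, the eosinophil-derived neurotoxin gene and another abundant granule transcript, was at 438 ± 9.31 CPM under UC-764864 and 487 ± 56.5 CPM under DMSO and did not pass. DEFA3 and DEFA4, genes of neutrophil defensins, were at 0 in every library. A further 2 genes of the list lay in rows read as missing and were not tested.

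Specific and gelatinase granules form later in maturation, and 10 of 22 genes for their proteins were tested. Of these, 3 fell and 0 rose, and the median log2 fold change was −0.21. Falls and rises numbered 4 and 0 at an unadjusted p under 0.05, 3 and 0 by DESeq2 and 4 and 0 with the GC trend removed. ORM1, the acute-phase glycoprotein orosomucoid, had a log2 fold change of −0.79 (edgeR adjusted p = 0.0124), B2M, the light chain of MHC class I, −0.57 (0.0281) and CHI3L1, a chitinase-like glycoprotein, −0.42 (0.0295). B2M is made by nearly all cells and was the most counted of the list, at 646 ± 53.1 CPM under UC-764864 and 961 ± 206 CPM under DMSO. All 3 lost their calls without UDI0051 or UDI0054, B2M and CHI3L1 also without UDI0053 and CHI3L1 without UDI0052, at adjusted p of 0.0552 to 0.125. LCN2, MMP8, CEACAM8, OLFM4, CRISP3 and PGLYRP1, which mark late neutrophil stages, were at 0 in every library.

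Inhibitors of granule and lysosomal proteases gave 2 rises and 1 fall among 12 tested, with a median log2 fold change of −0.03. DESeq2 gave 2 and 2, and removal of the GC trend 3 and 2. SERPINB2, plasminogen activator inhibitor 2, was at 2.47 ± 0.159 CPM under UC-764864 and 1.06 ± 0.520 CPM under DMSO (log2 fold change 1.28, edgeR adjusted p = 0.0203), and SERPINB8 rose by 0.43 (0.0317). Both calls were lost without UDI0051, UDI0052, UDI0053 or UDI0054, at adjusted p of 0.0504 to 0.141. A2M, the broad protease trap alpha-2-macroglobulin, fell to 1.78 ± 0.377 CPM under UC-764864, against 4.11 ± 0.381 CPM under DMSO (−1.21, adjusted p = 0.00816). SERPINB1, the inhibitor of elastase, proteinase 3 and cathepsin G inside neutrophils, was the most counted inhibitor, at 141 ± 10.4 CPM under UC-764864 and 181 ± 10.2 CPM under DMSO, and missed the threshold (−0.36, adjusted p = 0.0529).

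Among 15 tested genes of lysosomal cathepsins and protease processing, 1 rose and 0 fell, against 3 and 2 at an unadjusted p under 0.05, 2 and 0 by DESeq2 and 3 and 2 with the GC trend removed. The riser was CTSL, cathepsin L, at 24.5 ± 0.702 CPM under UC-764864 and 17.5 ± 1.22 CPM under DMSO (log2 fold change 0.49, edgeR adjusted p = 0.0256), a call lost without UDI0051, UDI0052, UDI0053 or UDI0054 (0.0642 to 0.117). CTSC, the dipeptidyl peptidase that activates elastase, proteinase 3 and cathepsin G by trimming their proforms, was at 242 ± 5.39 CPM under UC-764864 and 233 ± 8.91 CPM under DMSO and did not pass. CTSB was the most counted of the list, at 415 ± 10.6 CPM under UC-764864 and 415 ± 23.2 CPM under DMSO.

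Other S100 proteins and their receptors gave 1 rise and 3 falls among 12 tested, with a median log2 fold change of −0.21. Both DESeq2 and the fit with the GC trend removed gave 1 rise and 5 falls. ANXA2, the annexin that binds S100A10, rose to 128 ± 10.0 CPM under UC-764864, against 83.3 ± 2.37 CPM under DMSO (0.62, edgeR adjusted p = 0.00860), and lost the call without UDI0051 (0.0570). S100P fell by 1.02 on the log2 scale, the scavenger receptor CD36 by 0.83 and S100A4 by 0.48 (adjusted p = 0.0372, 0.0110 and 0.0256). S100A4 was the most counted of the list, at 139 ± 16.2 CPM under UC-764864 and 194 ± 13.3 CPM under DMSO. Calls were lost without UDI0051 for all 3, without UDI0052 or UDI0054 for S100P and S100A4, and without UDI0053 or UDI0056 for S100P, at adjusted p of 0.0536 to 0.158.

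Serglycin carries sulfated sugar chains, and none of 23 tested genes for their synthesis passed, with 0 rises and 0 falls in edgeR and in DESeq2 and 1 and 2 at an unadjusted p under 0.05. With the GC trend removed 3 rose and 5 fell. CHST11, a chondroitin sulfotransferase, was the most counted, at 208 ± 5.42 CPM under UC-764864 and 180 ± 11.6 CPM under DMSO (log2 fold change 0.21, edgeR adjusted p = 0.194).

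Myeloperoxidase needs heme and folds with calreticulin and other chaperones. Of 15 tested genes for these steps or for heme breakdown (HMOX1 and HMOX2), 4 rose and 0 fell, at a median log2 fold change of 0.23. DESeq2 gave 5 and 0, and removal of the GC trend 5 and 1. HMOX1, which breaks heme down rather than making it, rose to 24.3 ± 2.07 CPM under UC-764864, against 2.66 ± 0.287 CPM under DMSO (3.18, edgeR adjusted p = 2.12e-06). CALR, the chaperone that binds the myeloperoxidase precursor, rose to 3191 ± 218 CPM under UC-764864, against 1998 ± 298 CPM under DMSO (0.68, adjusted p = 0.00860). ALAS1, the first enzyme of heme synthesis, and PDIA3, a disulfide isomerase, rose by 0.51 (adjusted p = 0.0134) and 0.40 (0.0371) on the log2 scale. ALAS1 lost its call without UDI0051, UDI0053 or UDI0054 and PDIA3 without any of these or UDI0052, at adjusted p of 0.0601 to 0.154. Thus CALR and ALAS1 stood higher after UC-764864, while MPO, at 93.5 ± 9.16 CPM under UC-764864 and 90.7 ± 16.9 CPM under DMSO, did not pass.

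Transcription factors of granule genes, with the partner subunit CBFB, gave 3 falls and 0 rises among 16 tested. At an unadjusted p under 0.05, 4 fell and 2 rose, and DESeq2 gave 3 and 0, although the median log2 fold change of the list was 0.06. With the GC trend removed the list gave 6 falls and 3 rises. CEBPD fell to 31.6 ± 9.25 CPM under UC-764864, against 51.9 ± 8.43 CPM under DMSO (−0.72, edgeR adjusted p = 0.0366), and CEBPB to 5.90 ± 0.00683 CPM under UC-764864, against 9.39 ± 0.827 CPM under DMSO (−0.67, 0.0150). CBFB, the partner subunit of RUNX1, fell to 57.6 ± 3.70 CPM under UC-764864, against 92.7 ± 16.7 CPM under DMSO (−0.68, 0.0131). Without UDI0051 all 3 lost their calls, as CEBPD did without UDI0052, UDI0054 or UDI0055 and CEBPB without UDI0053, at adjusted p of 0.0552 to 0.109. MYB, whose mean CPM was the highest of the list and all but equal to that of IRF8, is a factor that drives several granule promoters in immature cells. It was at 576 ± 52.7 CPM under UC-764864 and 450 ± 48.9 CPM under DMSO and did not pass (0.36, adjusted p = 0.0674). CEBPA had the largest log2 fold change of the list, −1.16, but also missed the threshold (edgeR adjusted p = 0.0646). Its levels were 6.99 ± 3.84 CPM under UC-764864 and 15.7 ± 7.23 CPM under DMSO, without overlap between the groups.

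**Figure D5:**
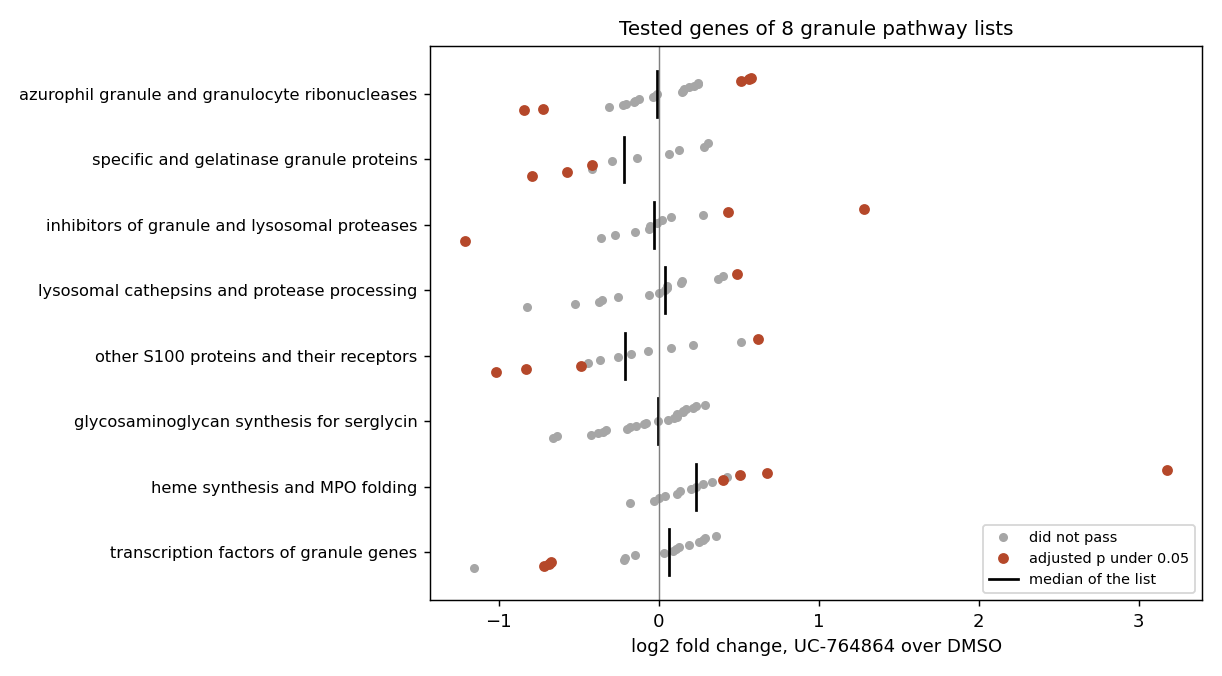
Log2 fold change, UC-764864 over DMSO, of each tested gene of the 8 lists (rows, spread vertically within a row only to separate points), with red points for genes that passed the test, grey points for the rest and a bar at each list's median. The medians lie between −0.21 and 0.23, against 0.01 for all genes, and HMOX1 lies farthest to the right at 3.18.

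Markers of monocytes and myeloblasts were measured beside LYZ, which monocytes make. Of 13 tested, 4 fell and 0 rose, against 8.13% and 5.11% of all genes that passed as lower and higher. At an unadjusted p under 0.05, 7 fell and 1 rose, against 16.6% and 14.9% of all genes. DESeq2 gave 5 and 1, against 10.2% and 6.35%. Removal of the GC trend gave 7 and 1, against 15.7% and 16.4%. Their summed level was 1729 to 1785 CPM in the UC-764864 libraries and 1969 to 2005 CPM in the DMSO libraries. ITGAM, the integrin chain CD11b that rises as myeloid cells mature, fell to 15.98 ± 2.82 CPM under UC-764864, against 32.5 ± 1.58 CPM under DMSO (log2 fold change −1.02, edgeR adjusted p = 0.00357). CSF1R, the receptor of the monocyte growth factor M-CSF, fell to 33.9 ± 4.97 CPM under UC-764864, against 50.8 ± 2.61 CPM under DMSO (−0.58, 0.0179), a call lost without UDI0051 (0.0869) or UDI0054 (0.0757). HOXA9, a homeobox factor of immature myeloid cells, fell by 0.73 (0.00647), and the adaptor gene TYROBP by 0.43 (0.0495), the last call being lost without UDI0051, UDI0052, UDI0053 or UDI0054 (0.0856 to 0.165). CD33, a receptor of myeloid cells from early stages on, was higher in every UC-764864 library than in any DMSO library and missed the threshold (0.33, unadjusted p of 0.00922, edgeR adjusted p = 0.0599).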

How the data were processed

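Poly(A) libraries were sequenced in pairs of 75 bp, per the labels. The authors deposited raw counts per gene, 1 column a library. FastQC 0.11.7, HISAT2 2.0.5, featureCounts 1.5.2 and GRCh37 are named in the submitters' processing notes. For the annotation release and the strand setting of the counting, the answer is not given in the sources used, so reads of overlapping or antisense genes (GENCODE v29 has an antisense gene at LYZ) cannot be told apart.

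Rows in which UDI0055 holds unbroken runs of zeros (3799) were read as missing, as an earlier analysis did. The 52839 others went into edgeR 4.0.16 under R 4.3.3 (filterByExpr, TMM factors of 0.978 to 1.03, glmQLFit and glmQLFTest, treatment as the only term). SE is the size of the log2 fold change over the square root of F. DESeq2 1.42.0 was an alternative. Precision follows the counts: a floor of 3 counts is 0.123 to 0.198 CPM and covers counting error only. The code was tested on simulated counts. GC content and length came from GENCODE v29 principal transcripts, for 86.3% of tested genes.

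Columns carry the treatment but no replicate number, so samples were never paired. Members and lists were chosen with earlier results of these data known. Named are all members, up to 4 called genes of each list by size of change and its most counted gene, the 3 genes most like a called member, and any gene that spells out a count of 5 or fewer. Genes beside the chromosome 19 cluster, CTSC, RNASE2, CEBPA, HMOX2, the marker genes and the ratios were chosen afterwards.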

Additional observations from a re-analysis of the deposited data

How the results depend on the processing

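LYZ kept its rise in each of 14 alternatives. Members called lower numbered 0, but 2 (ELANE and AZU1) without a low-count filter and with the GC trend removed, and 1 (ELANE) by DESeq2 and without UDI0052 and UDI0056; leaving out 1 library gave 0 to 1. Members called higher numbered 1, but 2 with the GC trend removed, where SRGN reversed to 0.27. Over all genes, 690 higher and 1097 lower became 22 and 125 with all rows as deposited and 1914 and 1826 of 11647 with the GC trend removed, against 685 and 1025 on the same genes with the trend kept, a setting added after seeing the data. The cause was not tested. Without a filter, 1676 were lower. Leaving out 1 library gave 62 (without UDI0051) to 1525 (without UDI0055) higher and 278 (without UDI0051) to 1729 (without UDI0055) lower. Without UDI0052, UDI0053 or UDI0054, 295, 166 and 94 were higher and 947, 460 and 475 lower. Scaling by library size alone made 28.6% of calls rises, against 38.6% with TMM. No paired analysis was possible because the columns of the count table carry no replicate numbers. Depth limits S100A8 and S100A9, and 3 libraries a group limit every interval.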

Other observations

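Some granule protein genes of another lineage, the eosinophil, were also transcribed in MOLM-13. Of 7 tested markers of eosinophils, basophils and mast cells, 3 rose after UC-764864 and 0 fell, against 5.11% and 8.13% of all genes, and their summed level was 118 to 144 CPM in the UC-764864 libraries and 89.4 to 97.9 CPM in the DMSO libraries. EPX, which encodes eosinophil peroxidase, the relative of myeloperoxidase, had 103, 89.2 and 104 CPM in the UC-764864 libraries, against 66.4, 75.5 and 62.2 CPM in the DMSO libraries, with no overlap (log2 fold change 0.54, edgeR adjusted p = 0.0180). PRG2, the major basic protein gene, averaged 6.72 ± 0.721 CPM under UC-764864 and 4.26 ± 0.343 CPM under DMSO (0.67, 0.0228). CLC, the Charcot-Leyden crystal protein galectin-10, averaged 3.20 ± 0.584 CPM under UC-764864 and 1.38 ± 0.198 CPM under DMSO (1.23, 0.00974).

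PRG3, a homologue of PRG2, did not pass (0.11, adjusted p = 0.805), nor did the eosinophil ribonuclease genes RNASE2 (−0.15, 0.381) and RNASE3 (−0.22, 0.239), whose log2 fold changes were below 0. CLC passed without each library in turn. EPX and PRG2 did not pass without UDI0051, UDI0053 or UDI0054, at adjusted p of 0.0798 to 0.121, and none of the 3 passed with the rows at 0 in UDI0055 kept as counts (0.0541 to 0.0619). The mast cell tryptases TPSAB1 and TPSB2, at 5.22 ± 2.20 and 16.8 ± 4.20 CPM under UC-764864 and 4.36 ± 1.45 and 13.2 ± 0.443 CPM under DMSO, did not pass, and these near-identical copies share reads, which makes each value uncertain. CMA1 was at 0 in every library and CPA3 had 1 count in all. A single lymphoid marker, CD3D, passed as lower (0.507 ± 0.0470 CPM under UC-764864 and 1.09 ± 0.132 CPM under DMSO, adjusted p = 0.0358). Among the stromal, epithelial and endothelial markers, only VWF, an endothelial one, did so (0.267 ± 0.183 CPM under UC-764864 and 1.21 ± 0.382 CPM under DMSO, adjusted p = 0.0172). Both calls came from few counts. CD3D lost its call without any library but UDI0055 (0.0843 to 0.141), and VWF without UDI0051 (0.0553) or UDI0054 (0.0615).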
